A study of Bos taurus with 6 samples.

Results

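Outside the genes listed in the transcript files, longissimus dorsi muscle of cattle held 2529 loci of spliced transcripts, which are described here. They were selected on the assembled transcripts themselves, by exon number, position and presence in an animal, as transcripts that StringTie assembled without a reference gene, that had 2 or more exons and whose span overlapped no reference transcript in any of the 6 animals on either strand. Overlapping transcripts on a strand were merged into 6791 loci, of which 2529 were found in at least 2 animals and kept, beside 18010 listed genes. RNA-Seq had been performed, with 1 library per animal, on 3 Shandong black cattle (B), a breed developed from Japanese black, Luxi and Bohai black cattle, and on 3 Luxi cattle (L), a Chinese yellow breed. All animals were 18 months old, no treatment was named, and the breeds came from different companies, so that breed and farm cannot be told apart. The level of a locus is its FPKM, the fragments per kilobase of transcript scaled to the fragments of the library, summed over its transcripts in an animal, and a locus with no such transcript in an animal counts as 0 there.

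Genomes are transcribed well beyond their annotated genes. The best known class of such spliced transcripts are long non-coding RNAs, which are made by RNA polymerase II, capped and often polyadenylated, and usually present at low levels. Many start beside the promoter of a coding gene and run away from it, and others are the primary transcripts from which microRNAs are cut. An assembler that sees only one library also breaks long messages into pieces, so a locus between annotated genes can also be an unlisted exon stretch of a neighbour.

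The word unannotated may not hold for many of the loci. In a later RefSeq annotation of the cattle genome (ARS-UCD2.0), the stretch between the listed neighbours of each locus was searched. It ran from the start of the left neighbour to the end of the right one, and listed genes without a match there were passed over. For 1922 loci (76.0%) it held a protein-coding gene that was not matched to a listed gene. Whether a locus overlaps such a gene was not examined, and listed genes without a match could be counted. These 1922 loci are given as counts and ranges, and singly only where the breed test called them. Of the other 607 loci, 267 had an annotated long non-coding RNA gene between their neighbours, 91 another kind of gene and 129 none. The last 120 could not be placed, so that no such search was made for them. On 59 unplaced scaffolds lay 99 of the 2529 loci. Apart from the called loci, those named below come from these 607. Chromosome 3 carried the most loci (146), and the X chromosome carried 76.

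Most loci were short chains of exons at low levels. The longest transcript of a locus had a median of 4 exons, 601 loci had 2, and the median locus spanned 11.6 kb with 1396 exonic bases. The mean FPKM over the 6 animals had a median of 0.154, and 197 loci (7.79%) reached a mean of 1. With more animals the loci were longer and higher: those found in 2 animals (1043 loci) had a median of 3 exons and a mean FPKM of 0.0839, and those found in all 6 (310 loci) had 9 exons and 0.884. The number of animals is part of the rule, so this gradient is a description. Just outside the rule, the 4262 loci found in 1 animal had a median FPKM of 0.218 in that animal and 2 exons, against 0.241 and 3 exons for the loci found in 2 animals.

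The splice junctions, whose positions the rule did not use, were shared between animals in most loci. An intron with the same first and last base was assembled in 2 or more animals in 2269 loci (89.7%), in at least 1 animal of each breed in 1656 (65.5%) and in all 6 animals in 236. Among loci found in exactly 2 animals the share was 78.0%, and among those found in 5 or 6 animals every locus had such a junction. Loci with a protein-coding gene between their neighbours had an identical junction in 2 animals in 92.0% of cases and the other loci in 82.4%. The former also had more junctions to share, with a median of 5 exons against 3, and 16.3% against 47.3% of them had only 2 exons.

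**Figure D1:**
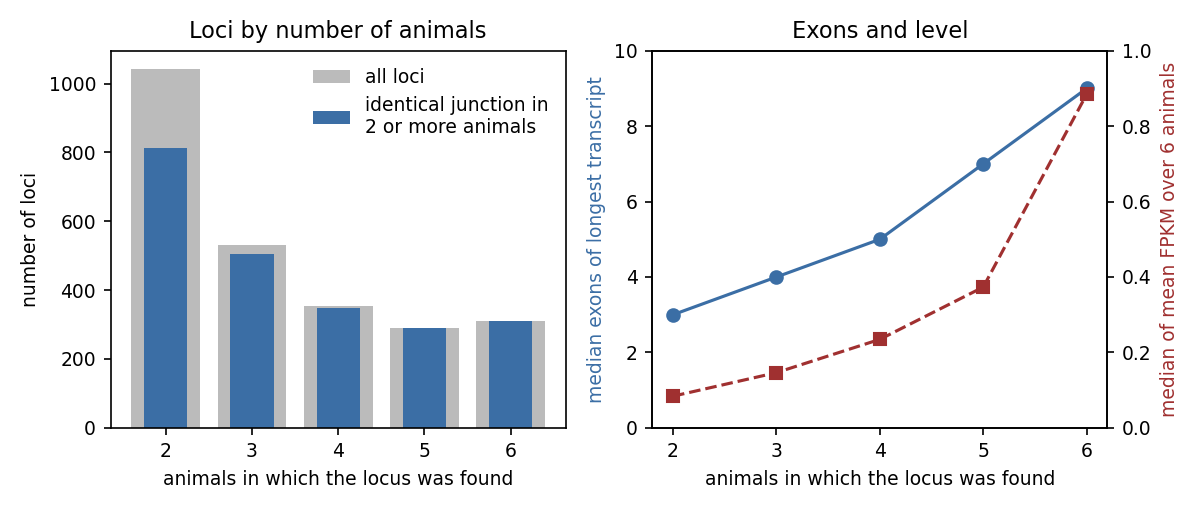
Left, number of loci by the number of animals in which they were found (grey bars), with those that had an identical splice junction in 2 or more animals (blue bars). Right, median number of exons of the longest transcript (blue, left axis) and median of the mean FPKM over 6 animals (red, right axis). The counts fell from 1043 loci in 2 animals to 310 in 6 while the median exons went from 3 to 9.

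By the ratio of coverage to FPKM, the libraries rested on 14.1 to 14.6 gigabases of aligned sequence in Shandong black and on 17.5 to 17.99 in Luxi cattle, so depth and breed cannot be told apart. Skeletal muscle markers were present in all animals, with ACTA1, the skeletal muscle actin, at an FPKM of 12237 in Luxi animal 1 and 32188 to 54910 in the others. Summed FPKM of 8 fat cell markers was 144 to 207 in Shandong black and 47.7 to 72.0 in Luxi cattle, although LPL, one of the 8, was at 16.7 to 17.5 and 23.3 to 37.2. The breeds were also apart in the sums of fibroblast and matrix markers (113 to 169 and 384 to 511), endothelial markers (14.49 to 15.1 and 19.1 to 57.7) and nerve and Schwann cell markers (47.7 to 119.5 and 7.58 to 27.3). XIST, the RNA of the inactive X chromosome, stood at 4.83 to 14.0 in Shandong black and at 0 to 0.207 in Luxi cattle, and the labels give no sex. The part of depth, cell makeup and sex in the breed differences below was not tested, and in whole muscle, fewer cells of a type and less RNA per cell cannot be told apart.

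By the rule, more of the loci were found in Luxi cattle. The Shandong black animals held 1134, 1410 and 1301 of them and the Luxi animals 1554, 1454 and 1556, which do not overlap. The means were 1282 ± 139 and 1521 ± 58.3 (SD, n = 3). Presence in an animal was part of the rule, so these numbers are a description. With any transcript of the strand on the exons counted, the numbers were 1493, 1778 and 1664 against 1870, 1753 and 1841, which overlap. Counting only loci with an FPKM of at least 0.5 in the animal, the numbers were 398, 502 and 405 against 515, 462 and 522, which overlap. The loci carried 0.487, 1.32 and 1.71% of the FPKM of a library in Shandong black and 1.44, 2.19 and 2.16% in Luxi cattle (exact two-sided permutation test, p = 0.2, where 3 against 3 animals cannot go below 0.1). A single locus beside NEMF carried much of this share in 5 animals. Without it the loci carried 0.487 to 0.554% in Shandong black and 0.753 to 0.842% in Luxi cattle, which do not overlap (exact permutation p = 0.1, adjusted p = 0.2 over 6 comparisons of this kind). This removal was not planned, and other high loci remain in these shares, such as 2 scaffold loci at 802 and 537 FPKM in Luxi animal 2. From every transcript of the strand on the exons of all loci, the shares were 1.02, 1.11 and 1.44% in Shandong black and 1.40, 1.99 and 1.88% in Luxi cattle, which overlap.

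An animal in which a locus is not found need not lack its RNA. Of the 15174 pairs of a locus and an animal, 6765 had no transcript that met the rule, but in 1990 of these (29.4%) the animal had another transcript on the exons of the locus and on its strand. In 1655 pairs it was a transcript of 1 exon and in 444 a transcript that reached into a listed gene. A second measure was therefore computed, the level over exons, for which the FPKM of every transcript of the strand, listed or assembled, was weighted by the share of the locus exons that it covered. It is printed beside the locus FPKM for the loci where the measures differ on whether the breeds overlap or on a call. It is lower than the locus FPKM where several alternative transcripts share out the exons.

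The highest level of all was that of the locus beside NEMF (chr10:42820454-42834794 in ARS-UCD1.2, minus strand). It lies 945 bases upstream of NEMF, which codes for a factor that rescues stalled ribosomes, and has ARF6 22.9 kb on its other side. In the human genome a gene for 7SL RNA, the RNA scaffold of the signal recognition particle, lies beside NEMF. The locus was found in 5 animals, and none of its 6 junctions was identical in more than 2. The locus FPKM was 0, 2857 and 4080 in the Shandong black animals and 1787, 5886 and 5608 in the Luxi animals. Shandong black animal 1, with the 0, had a level over exons of 1565, against 2252 and 3478 in the other 2 and 1634, 5856 and 5177 in Luxi cattle. The breeds overlap on both measures, and the log2 fold change of Luxi over Shandong black cattle was 4.10 ± 2.96 (SE, limma adjusted p = 0.446) on locus FPKM and 0.67 on the level over exons (limma adjusted p = 0.568).

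Among the 607 loci, a pair on 1 unplaced scaffold followed. The first, on the minus strand at bases 76433 to 80935, had FPKM of 105, 0 and 351 in Shandong black and 277, 802 and 739 in Luxi cattle. The second, on the plus strand at bases 66962 to 71277, had 61.2, 0 and 51.9 against 16.1, 537 and 430. Neither has a listed neighbour, and both were again present over their exons in the animal with the 0, at 97.7 and 56.3. Luxi animals 2 and 3 were the highest at both loci, and over exons Luxi animal 1, at 133 and 51.5, was within or below the ranges of Shandong black cattle, 97.7 to 206 and 56.3 to 106. Neither was called (limma adjusted p = 0.284 and 0.335).

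A locus of 0.694 kb lay 320 bases downstream of RN18S1, an 18S ribosomal RNA gene (chr27:6223648-6224341, minus strand). Its FPKM was 29.7, 0 and 0 in Shandong black and 482, 0 and 311 in Luxi cattle. Over its exons all 6 animals had transcripts, at 270, 24.6 and 38.0 against 418, 311 and 310. The Luxi animals lay above all Shandong black animals on this second measure, but the difference was not called (log2 fold change 2.41, limma adjusted p = 0.149). In 3 animals its junctions also stood in transcripts that overlapped RN18S1.

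Of the other 4 highest loci, 2 lay on scaffolds with FPKM from 13.8 to 103 and from 0 to 59.5 over the 6 animals. No junction of the former was identical in more than 2 animals, and none of the latter was assembled in more than 1. The 10-exon locus beside LOC100848930 (chr14:16328133-16369668, plus strand) was found in all 6 animals, at 23.7, 78.2 and 30.3 in Shandong black and 60.6, 79.6 and 22.9 in Luxi cattle, and at least 1 of its junctions was identical in all 6. Of its 10 junctions 7 were also assembled on the opposite strand. The locus beside TSPAN12, a tetraspanin of endothelial Wnt signalling (chr4:85372972-85382695, plus strand), met the rule only in Shandong black animal 3 and Luxi animal 1, with 52.5 and 156, whereas its level over exons was 46.4, 63.9 and 48.6 against 167, 21.6 and 62.5. None of the 8 highest loci was called between the breeds, and RN18S1 and NEMF were not called either (limma adjusted p = 0.464 and 0.737).

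**Figure D2:**
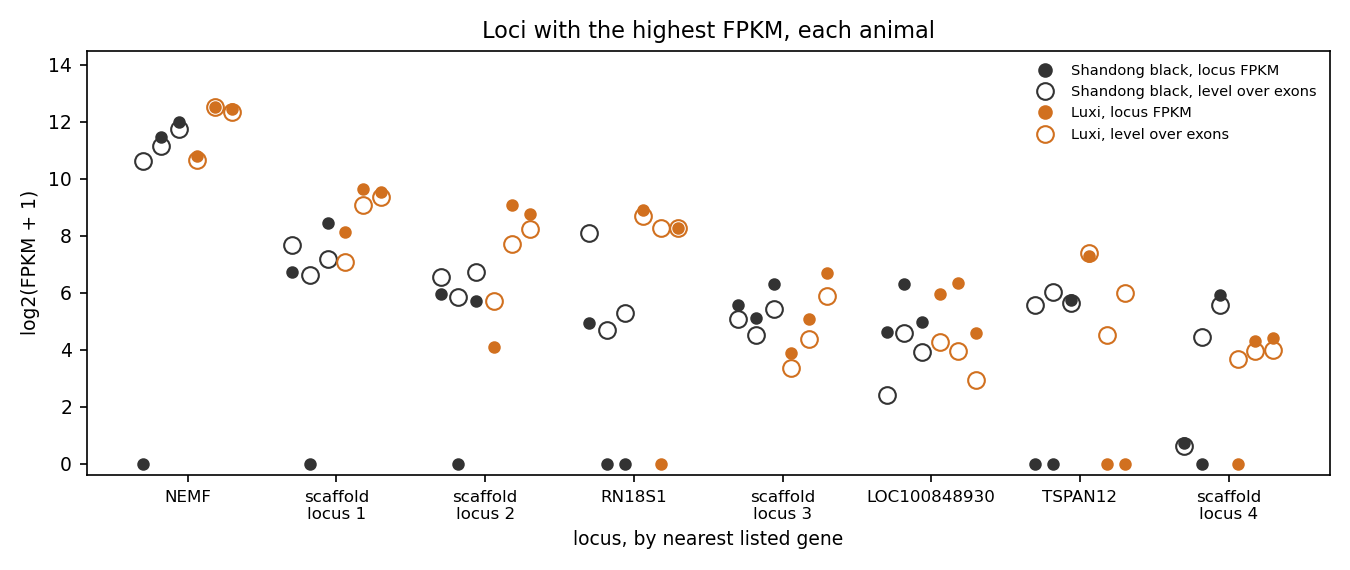
The 8 loci of highest mean FPKM among the 607 loci, on a log2(FPKM + 1) axis, with each point an animal (dark, Shandong black cattle, orange, Luxi cattle). The scaffold loci among them could not be placed, so no gene between neighbours was searched for. Filled points are the locus FPKM and open circles the level over exons from every transcript of the strand. Filled points at 0 with an open circle far above them, such as Shandong black animal 1 at NEMF, mark animals whose transcripts did not meet the rule.

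The breeds were compared on log2(FPKM + 1) with limma over 10082 features, which were the genes and loci whose mean FPKM reached 1 in one or both breeds. Fold changes on this scale understate those of low levels. The filter was passed by 301 loci and not by 2228. Of the 301, 143 passed it in both breeds, 51 in Shandong black cattle only and 107 in Luxi cattle only, and a locus that passed through the breed where it was high had to differ to some extent. A difference was called where the Benjamini-Hochberg adjusted p-value lay below 0.05 and the fold change, up or down, reached 1 on the log2 scale. Of all features 2.28% were called, 1.38% higher and 0.903% lower in Luxi cattle, and of the loci 7 (2.33%), 2 higher and 5 lower, of which 6 are described below. The share of called loci was thus that of the background. The median log2 fold change was 0.28 over the loci tested and 0.13 over the genes tested.

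The 7 called loci had in common that they were absent from at least 1 animal. None of the 143 loci that passed the filter in both breeds was called, and none of the 173 tested loci that were found in all 6 animals, of which 50 had an unadjusted limma p-value under 0.05. The animals of the breeds did not overlap in 83 of the 301 loci (27.6%), and in 29.1% of all features tested. Within a breed, log2(FPKM + 1) of the loci had a median standard deviation of 0.33 in Shandong black and 0.43 in Luxi cattle against 0.19 and 0.31 for the genes.

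Among the called loci the difference was largest for a 3-exon locus near the end of chromosome 8 (chr8:113138967-113149673, plus strand). Its nearest listed gene is FAM110C, which codes for a centrosomal and spindle pole protein, 213 kb away. No listed gene lay on its other side, so this locus could not be placed and no search for a gene between neighbours was made. The Shandong black animals stood at 23.5, 11.4 and 19.9 FPKM and each Luxi animal at 0. Over its exons it stood at 19.2, 11.4 and 16.2 in Shandong black cattle, and no Luxi animal had any transcript there. The same junction was assembled in the 3 Shandong black animals. The log2 fold change was -4.21 ± 0.26 (SE, limma adjusted p = 0.0021), and -4.03 over exons (limma adjusted p = 0.000765). FAM110C itself was at 0.285 to 0.395 in Shandong black and 0.160 to 0.442 in Luxi cattle, so that the locus was far higher than its neighbour. The call was lost only with voom on estimated reads, among 19 alternatives (limma adjusted p from 0.000384 to 0.0673).

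Another 4 loci were lower in Luxi cattle. A 5-exon locus 28.9 kb from BLA-DQB, the beta chain of a class II antigen-presenting molecule (chr23:25582824-25643818, minus strand), had 7.63, 6.11 and 7.31 against 0, 0.982 and 1.66 (log2 fold change -2.20 ± 0.35 SE, limma adjusted p = 0.0312). Over exons it had 1.57, 1.57 and 1.77 against 0, 0.276 and 0.417, and the log2 fold change was -1.11 (limma adjusted p = 0.0346). The class II region holds near-identical gene copies that differ between haplotypes, so reads there are uncertain. BLA-DQB itself was at 1.84 to 4.48 in Shandong black and 5.20 to 13.6 in Luxi cattle and was not called (limma adjusted p = 0.166). A 4-exon locus 12.0 kb downstream of LOC112446432 (chr4:106071887-106075652, plus strand) had 5.27, 1.92 and 3.90 in Shandong black cattle and 0 in the Luxi animals on either measure (log2 fold change -2.16 ± 0.29 SE, limma adjusted p = 0.0223).

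A locus 33.7 kb upstream of KLHL25, an adaptor of a ubiquitin ligase (chr21:16650262-16704615, minus strand), had 5.75, 3.52 and 2.89 in Shandong black and 0.503, 0 and 0.296 in the Luxi animals. The log2 fold change was -1.98 ± 0.26 (SE, limma adjusted p = 0.0223), but -1.01 over exons, where it was not called (limma adjusted p = 0.0659). A locus 43.8 kb from CACUL1, a regulator of the cell cycle, and on the opposite strand (chr26:39061162-39092534, plus strand), had 1.90, 1.07 and 1.52 against 0 in each Luxi animal, with 0.0431 over exons in Luxi animal 3 (log2 fold change -1.31 ± 0.20 SE, limma adjusted p = 0.0297). The 3 Shandong black animals were above all Luxi animals at each of these 5 loci. KLHL25 and CACUL1 themselves did not follow, with log2 fold changes of 0.39 and 0.14 (limma adjusted p = 0.313 and 0.646).

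The called locus of highest level in Luxi cattle lay between FCN1 and PPP1R26, 123 kb and 204 kb away (chr11:105573412-105598425, plus strand). Its FPKM was 0.761, 0.810 and 0 in Shandong black and 4.28, 5.99 and 3.13 in Luxi cattle (log2 fold change 1.86 ± 0.30 SE, limma adjusted p = 0.0319). Over exons it was 0.327, 0.491 and 0.140 against 3.72, 5.14 and 3.13 (limma adjusted p = 0.0104). At least 1 of its 5 junctions was identical in 5 animals. The loci beside FCN1, BLA-DQB and LOC112446432 were among the 1922 loci with a further protein-coding gene between their neighbours in the later annotation. The number of called loci depended on single animals. It was 1 without Shandong black animal 1, 2 without animal 3, 3 without Luxi animal 2 or 3 and 29 without Luxi animal 1. The calls over all features moved alike, from 230 to 5, 5, 45, 73 and 603 without Shandong black animals 1 and 3 and Luxi animals 2, 3 and 1. The chromosome 8 locus stayed called whichever animal was left out, whereas each of the other 5 described lost its call without Shandong black animal 1 or 3 or Luxi animal 2, with limma adjusted p-values from 0.0644 to 0.156. Shandong black animal 2 and Luxi animal 3 each ended some of these calls as well. Over the alternatives in which a locus was fitted, those single animals included, the call was lost in 10 of 19 for the FCN1 locus, 8 of 18 for BLA-DQB, 8 of 19 for KLHL25, 7 of 17 for CACUL1 and 6 of 19 for LOC112446432. The BLA-DQB locus had no fit with members merged where exons overlap. The CACUL1 locus was not tested over exons, with 0.819, 0.326 and 0.558 in Shandong black cattle, or with a mean FPKM of at least 1 over the 6 animals required.

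**Figure D3:**
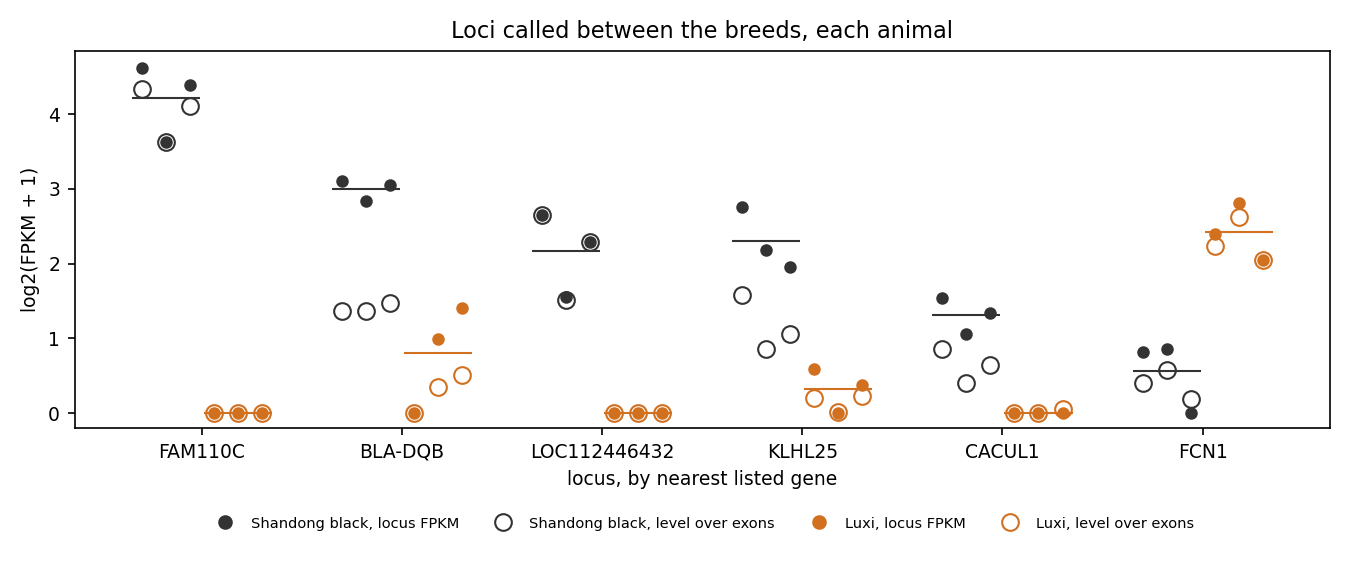
6 loci called between the breeds, named by their nearest listed gene, on a log2(FPKM + 1) axis, with each point an animal (dark, Shandong black cattle, orange, Luxi cattle) and lines at the breed means of log2(locus FPKM + 1). Filled points are the locus FPKM and open circles the level over exons. The FAM110C locus stands at 11.4 to 23.5 FPKM in the Shandong black animals and at 0 in the Luxi animals.

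Across the 2529 loci, 268 (10.6%) shared at least 1 junction with a transcript that overlapped a listed gene in some animal, among them 97 of the 607 (16.0%). With the level over exons in place of the locus FPKM, 7 of 185 loci that passed the filter on this measure were called, which is 3.78%, 1 higher and 6 lower in Luxi cattle. Of all features 2.51% were called in that fit, 1.5% higher and 1.01% lower. The calls by both measures had 4 loci in common, those beside FAM110C, BLA-DQB, LOC112446432 and FCN1.

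Loci found in the 3 animals of a breed and in none of the other numbered 37 for Shandong black cattle (1.46% of the loci) and 85 for Luxi cattle (3.36%). Of the listed genes found in 2 or more animals, 0.537% and 0.495% had these patterns. Their levels were low, with a median FPKM of 0.397 and 0.302 in the breed that held them, and 6 and 7 of them were tested. Over the exons, 22 of the 37 and 45 of the 85 were at 0 in all animals of the other breed, and in 4 of the 85 the mean level over exons was not lower in Shandong black cattle. A junction identical in the 3 animals was present in 28 of the 37 and 55 of the 85. On the X chromosome lay 1 locus of each kind.

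Among the 607 loci, the highest Shandong black locus of this kind after those beside FAM110C and CACUL1 was the one 5.15 kb downstream of CEBPB, a transcription factor of adipocyte differentiation (chr13:78211953-78238518, plus strand). Its FPKM was 0.641, 0.633 and 0.972 in Shandong black and 0 in Luxi cattle. Over its exons the breeds overlap, at 0.289, 0.299 and 0.703 against 0.283, 0.192 and 0.425, and no junction was shared between animals. High among the Luxi loci were the locus 35.6 kb from LOC100138584, with 0.581, 1.76 and 2.80 (chr6:25791709-25795071, minus strand, limma adjusted p = 0.0773) and a locus 9.24 kb from LOC104974692, with 2.72, 0.886 and 0.798 (chr17:66996968-67121190, minus strand, limma adjusted p = 0.0854). Over exons these had 0.242 to 1.198 and 0.251 to 0.483 in Luxi cattle, and at most 0.0194 and 0.0215 in Shandong black cattle.

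Loci close to a listed gene most often ran away from it. Of 2467 loci with a listed neighbour, 785 lay within 5 kb and 355 within 1 kb. Within 1 kb, 175 (49.3%) were divergent, that is on the opposite strand and upstream, as from a shared promoter region, 73 were convergent, 54 upstream and 53 downstream on the same strand. At 1 to 5 kb 14.2% were divergent, at 5 to 50 kb 17.6% and beyond 50 kb 22.7%. Among the 607 loci the share within 1 kb was 58.9%. The rule excludes overlap on either strand alike and did not use orientation itself. However, a transcript that was assembled as 1 with a listed gene on its strand was left out by it. Whether this lowered the same-strand shares close to genes was not tested, and no test of the shares was made.

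**Figure D4:**
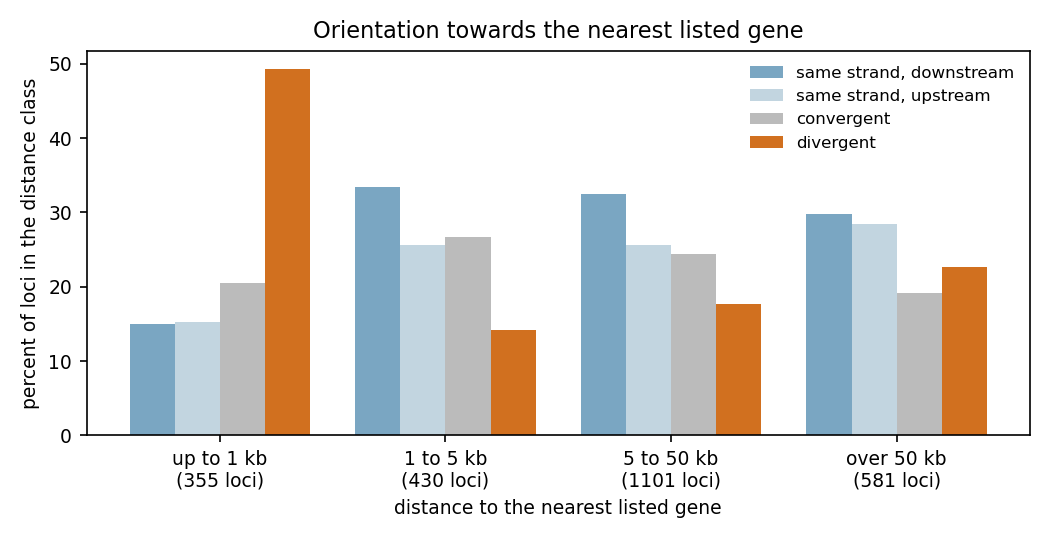
Share of loci in each orientation towards the nearest listed gene (bars), by distance, with the number of loci in each distance class below the axis. Divergent loci (orange) made up 49.3% within 1 kb and 14.2 to 22.7% at larger distances.

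The divergent loci of highest FPKM, chosen after their values were seen, were found in 4 to 6 animals. The locus 61 bases from TM6SF1 (chr21:24951964-24991373, plus strand) had 1.62, 3.25 and 3.13 in Shandong black and 5.76, 0.560 and 2.39 in Luxi cattle. Over its exons it had 1.23, 1.36 and 1.87 against 0.888, 0.172 and 0.365, which do not overlap (log2 fold change -0.77, limma adjusted p = 0.118). That beside EDEM3, a mannosidase of protein quality control in the endoplasmic reticulum (chr16:65792685-65824840, plus strand), had 1.95, 2.76 and 2.36 against 0.724, 2.03 and 2.95, with the same junction in all 6 animals. A 2-exon locus of 0.552 kb beside C14H8orf33 (chr14:303010-303561, minus strand) was found in all 6 animals, from 1.002 to 1.84, and over exons the lowest Shandong black animal, at 1.245, lay just above the highest Luxi animal, at 1.241 (limma adjusted p = 0.485). The locus 8 bases from RBM22, a splicing factor (chr7:62064613-62066812, plus strand), had 0.564, 0 and 0.309 against 0.532, 3.03 and 3.83, but 1.24 to 1.86 and 1.64 to 2.66 over exons. The breeds overlap at each of them on locus FPKM, and none of the 29 divergent loci within 1 kb that were tested was called.

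Across loci, the breed difference of a locus and that of its nearest gene had little relation. Over the 165 pairs in which both were tested, Pearson's r between the log2 fold changes was -0.02 and Spearman's rho 0.05, and 92 pairs had the same sign. For the 27 divergent pairs within 1 kb r was 0.11. These are descriptions across loci that share the same 6 libraries. The divergent locus beside DDIT4L, an inhibitor of mTOR signalling in muscle (chr6:24458795-24526318, minus strand), had 0.439, 1.58 and 0.197 against 2.36, 1.84 and 1.29, and DDIT4L 9.95, 43.1 and 22.9 against 41.4, 72.4 and 49.3. Neither was called (limma adjusted p = 0.215 and 0.208).

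Some loci lay beside listed microRNA genes. MicroRNAs are cut from long primary transcripts that the annotation often leaves out, listing only the short hairpin. Within 5 kb of a listed microRNA gene and on its strand lay 12 of the 607 loci, chosen after their values were seen. A locus of 388 kb and up to 10 exons ended 412 bases before MIR99A (chr1:20435824-20824149, minus strand), with 0.550, 1.63 and 0 in Shandong black and 3.28, 0.963 and 1.16 in Luxi cattle. The next locus on that strand, 3.73 kb past MIR125B-2 of the same cluster (chr1:20370807-20381822), had 0.457, 0.855 and 0 against 2.55, 0.445 and 0.532. Each had a junction identical in 5 animals, and Luxi animal 1 was the highest at both. They were not called (limma adjusted p = 0.366 and 0.481).

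A related cluster on chromosome 15 had loci on both sides. One ended 17 bases before MIR100 (chr15:32818609-32822781, minus strand), with 0.380 in Shandong black animal 2 and 0.261 in Luxi animal 1. Over its exons it had 0.273, 0.123 and 0.156 against 1.07, 0 and 0.0998. In 3 animals it shared junctions with transcripts over MIR100 or LOC107131357. The other lay 2.74 kb past MIRLET7A-2 (chr15:32804890-32810007, minus strand), with 0.454, 0.189 and 0.589 against 0.488, 0 and 0.159. Over exons the MIRLET7A-2 locus had 0.411 to 0.426 in Shandong black and 0.0459 to 0.302 in Luxi cattle, which do not overlap and were not tested. Upstream of MIR29B-2, a regulator of collagen messages, a locus of 67.4 kb (chr16:75508169-75575608, plus strand) had 2.41, 0.198 and 1.64 in Shandong black and 4.47, 4.65 and 2.398 in Luxi cattle. The breeds overlap on locus FPKM and over exons, where they had 0.620 to 2.87 and 1.8 to 2.86 (limma adjusted p = 0.180 and 0.682).

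Between MIR568 and ZBTB20, a transcriptional repressor, the longest of the 12, a locus of 815 kb (chr1:58956082-59771551, minus strand) had 1.96, 5.99 and 2.81 against 14.4, 4.75 and 9.13 and shared junctions with transcripts over MIR568 or ZBTB20 in all 6 animals. The breeds overlap, and it was not called (log2 fold change 1.17, limma adjusted p = 0.182). With members merged only where exons overlap it was called (log2 fold change 2.31, limma adjusted p = 0.0363), and over exons the log2 fold change was 0.01. The imprinted MEG3 region of chromosome 21 held a locus 873 bases past MEG3 (chr21:65746907-65748564, plus strand) and loci beside MIR758 and MIR1193. Their FPKM did not exceed 0.815, and transcripts on the exons of the MEG3 locus were present in all 6 animals, from 0.261 to 1.85, the highest in Luxi animal 1. The remaining loci lay beside MIR101-1, MIR2443, MIR365-2 and MIR1247, with an FPKM of at most 1.12 in any animal. That beside MIR2443 was found only in the Luxi animals, at 0.306, 0.240 and 0.378, but over exons the breeds overlap, at 0.221 to 0.512 and 0.290 to 1.005.

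Beside genes of the contractile apparatus and of myogenesis the loci were weak. By the marker lists, 3 of the 607 loci had a marker within 10 kb as their nearest gene. The 2-exon locus divergent from TTN, the gene of titin, at 1.79 kb (chr2:18047526-18059425, minus strand), had 0.204, 0.242 and 0.235 in Shandong black and 0.234, 0.511 and 0.415 in Luxi cattle. Its single junction was identical in all 6 animals. TTN itself stood at 381 to 880. A 3-exon locus 4.54 kb upstream of MYH7, the slow myosin heavy chain (chr10:21482203-21484177, plus strand), had 0.182, 0.192 and 0 against 0.845, 0 and 0.448. A 2-exon locus 1.70 kb upstream of MYF5, a myogenic transcription factor (chr5:10280593-10282730, plus strand), was found only in Luxi animals 2 and 3, at 0.276 and 0.182. Over its exons Shandong black animal 3 also had transcripts, at 0.127.

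Loci beside 5 other genes were chosen after their values were seen. The locus divergent from MEF2C, a transcription factor of muscle differentiation (chr7:88426305-88524067, plus strand, 475 bases away), had 1.55, 0.648 and 1.08 in Shandong black and 0, 0.171 and 0.553 in Luxi cattle, which do not overlap (log2 fold change -0.76 ± 0.26 SE, limma adjusted p = 0.150). Over its exons it had 0.568, 0.620 and 0.971 against 0.0771, 0.0471 and 0.0430. MEF2C had 58.9, 30.1 and 72.6 against 28.4, 30.3 and 35.3 (limma adjusted p = 0.2999). In all 6 animals the locus shared junctions with transcripts over LOC782219 on its other side. The locus 44.9 kb from LPL, lipoprotein lipase (chr8:66920773-66944799, minus strand), had 1.74, 1.55 and 3.33 against 3.998, 2.09 and 3.25, which overlap, with a junction identical in all 6 animals (limma adjusted p = 0.448). Over exons it had 0.738, 0.685 and 0.727 against 0.898, 0.88 and 1.126, which do not overlap and were not tested. The locus 4.84 kb from the end of CD34, a marker of endothelial and progenitor cells (chr16:75494118-75508716, minus strand), had 3.92, 2.87 and 4.48 against 3.37, 4.53 and 4.26 (limma adjusted p = 0.808), while CD34 had 10.6 to 13.3 and 13.9 to 34.4. The locus 17.2 kb upstream of DCN, a collagen-binding proteoglycan (chr5:21070634-21110544, minus strand), was found only in the Luxi animals, at 0.459, 0.571 and 1.82, and had 0 to 0.169 in Shandong black cattle against 0.343 to 0.505 over exons. The locus divergent from TRDN, which codes for triadin of the muscle calcium release complex (chr9:27681506-27697155, minus strand), was found only in Shandong black animals 1 and 3, at 0.203 and 0.352, but over exons transcripts were present in all 6 animals.

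Loci with many exons lay beside CD164, FBXL22 and ATAD2. A locus of up to 35 exons and 140 kb faced CD164 end to end (chr9:40776425-40916123, minus strand). It was found in all 6 animals with a junction identical in all, at 0.458, 0.482 and 0.257 in Shandong black and 0.471, 1.199 and 1.86 in Luxi cattle (limma adjusted p = 0.258). A locus of 25 exons between HERC1, a giant ubiquitin ligase, and FBXL22, a muscle F-box protein (chr10:46359246-46398431, plus strand), met the rule in Shandong black animal 2 with 3.36 and Luxi animal 1 with 1.80. In 5 animals it shared junctions with transcripts that overlapped HERC1, and its level over exons was 1.35 to 3.07 and 2.87 to 5.33. FBXL22, which it faces at 4.96 kb, was higher in Luxi cattle, at 1.38, 1.91 and 2.77 against 0.170, 0.412 and 0.425 (log2 fold change 1.16, limma adjusted p = 0.0473), whereas the locus was not called (limma adjusted p = 0.877). A locus of 20 exons 541 bases past ATAD2, a chromatin ATPase (chr14:16480384-16517023, plus strand), had 1.34, 0.275 and 1.17 against 0.978, 0.565 and 0, and shared junctions with transcripts over ATAD2 in 2 animals.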

How the data were processed

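RNA-Seq libraries of longissimus dorsi muscle (Illumina TruSeq kit per the labels, 1 library per animal, 3 animals per breed) had been processed by the authors. Reads were trimmed with Fastp, aligned with HISAT to ARS-UCD1.2 and assembled per library with StringTie 1.3.3b, per the file headers guided by an NCBI annotation and with the strand option rf. The authors deposited, for each transcript, its exons and its coverage, FPKM and TPM. No read counts were used here. For 1 alternative fit, with voom, reads were estimated from coverage, transcript length and an assumed read length of 150 bases.

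Loci were built from the transcripts with Python 3.11.15 and pandas 2.3.3. Locus FPKM was log2(FPKM + 1) transformed and fitted with limma 3.58.1 (R 4.3.3, eBayes with trend, no covariate) together with all listed genes, where the mean FPKM reached 1 in one or both breeds, and adjusted p-values are Benjamini-Hochberg values over all 10082 features. Values per animal were compared with exact two-sided permutation tests. Each breed has 3 animals, and the limma p-values set the breed difference against the spread between these animals, moderated over all features. Simulated data with 200 changed features of the 10082 gave 57.5% recovered at a log2 fold change of 1.5 and 93% at 3, with 3 and 8 false calls. The values were drawn from normal distributions over all features, 9781 of them genes. Zeros that arise where an assembly does not meet the rule were not modelled, so these rates do not describe the loci by themselves.

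The loci named were the 8 of highest mean FPKM, the called ones, the 4 with most exons, the 3 highest found in 1 breed only and those with a marker gene within 10 kb. Except for the called loci, names were limited to the 607 loci in which no protein-coding gene was found between the neighbours. These include the 120 that could not be placed and were not searched, and the limit was set after the layout was seen. Neighbouring genes and distances came from the listed transcripts on ARS-UCD1.2. Genes between neighbours came from the RefSeq table of ARS-UCD2.0, by the coordinates in that assembly. Listed genes were matched to it by symbol, gene identifier or synonym, for 16632 of 18010 (92.3%). The members and lists were chosen with earlier results of these data known. Samples with the same replicate number did not deviate together. No genome sequence was used here. Some loci that the rule names, 1 of them called, are not reported here.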

Additional observations from a re-analysis of the deposited data

How the results depend on the processing

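The number of loci called between the breeds was 7 of 301 loci tested, among 230 calls over all features. It was 2 of 2529 without a filter on FPKM (63 over all features), 15 of 793 with TPM (259), 12 of 301 with quantile normalization (297), 3 of 301 at a log2 fold change over 2 (65) and 0 with voom on estimated reads, where 63 of the 301 loci had an unadjusted p-value under 0.05 and 73 features of all were called. Leaving out 1 animal gave 1 to 29 calls, with the lowest number without Shandong black animal 1 and the highest without Luxi animal 1 (5 and 603 over all features). The cause was not tested. Replicate numbers 1 to 3 are shared between the breeds. Deviations of same-numbered animals correlated at 0.0727, 0.0844 and 0.056, so the numbers were not taken as pairs, and with a replicate block 5 loci were called. The other settings gave 5 to 10 calls. The difference in the number of loci per animal and that in the share of FPKM kept their sign in every setting run. Loci under a mean FPKM of 1 in both breeds were tested only in fits with another filter or none, and no sequence was examined.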

Other observations

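Assembled strands were not always single. The loci formed 80 pairs that overlap on opposite strands, and in 43 of them both strands held an intron with the same first and last base. Counting all transcripts, 161 loci (6.37%) had such a mirrored junction. The share was 35.4% for the 99 loci on unplaced scaffolds and 2.63% for the 76 loci on the X chromosome. Since an intron has 1 orientation, the strand of these loci is uncertain.

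Loci that neither shared a junction with transcripts over a listed gene, nor had a mirrored junction, nor had a protein-coding gene found between their neighbours numbered 450, loci that could not be placed included. Of these 232 had 2 exons, 360 (80%) had an identical junction in 2 or more animals, 241 in both breeds and 29 in all 6 animals. Their mean FPKM had a median of 0.152, and 3 of the 52 that were tested were called, where 2.28% of all features were, those beside FAM110C, KLHL25 and CACUL1.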
